A study of Mus musculus with 8 samples.

Results

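mmu-miR-206-3p and mmu-miR-133b-3p, here miR-206-3p and miR-133b-3p, are the 3′ arms of a pair of neighbouring muscle microRNA (miRNA) hairpins, chosen by name from the 1881 mouse miRNAs on the array. Both were bright in the medium of all 8 co-cultures of primary mouse myocytes. miR-206-3p averaged 0.83 times its WT/WT level in pure mutant medium and 0.85 times in mixed medium. miR-133b-3p averaged 1.19 times its WT/WT level in pure mutant medium and 1.24 times in mixed medium. None of these differences passed the test across all tested miRNAs (limma, Benjamini-Hochberg adjusted p, threshold 0.05), and both WT/WT arrays differed from each other by as much.

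The study measured miRNAs in the medium of transwell co-cultures, 1 Agilent 1-colour array per sample. A group is written as bottom chamber/insert: G93A/G93A (n = 3), G93A/WT (n = 3) and WT/WT (n = 2), and a number after the group is the replicate. G93A cells came from newborns of strain B6SJL(Tg-SOD1*G93A)1Gur/J, which overexpress human SOD1 with a mutation that gives a form of amyotrophic lateral sclerosis (ALS). WT cells came from newborns of strain B6SJL(Tg-SOD1)2Gur/J, which overexpress the wild-type human protein, so every group carried a human SOD1 transgene. The pups were 1 to 3 days old, their label reads male, and medium was taken at 2 days in vitro without any treatment. The chambers were seeded with 2.5 (bottom) and 1.5 (insert), both in 1e5 cells, and the insert's pores measured 0.4 µm. Per the labels the samples are biological replicates, with no litter, culture or day named, so p-values measure the spread between these samples. Medium holds what the cells release and what the serum brings, and where cattle or horse share a sequence with the mouse, its origin cannot be told apart on an array. More cells and more release per cell cannot be told apart either.

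Muscle cells make miR-206 when they differentiate, under the control of myogenic factors such as MyoD, and it lowers proteins that hold differentiation back, histone deacetylase 4 among them. In muscle that has lost its nerve, as in ALS mice, miR-206 is known to rise and to favour the regrowth of nerve-muscle contacts. miR-133b belongs to the miR-133 family, which is known in myoblasts for repressing serum response factor and for balancing proliferation against differentiation. In the RefSeq annotation of GRCm38.p6 both hairpins lie within Lincmd1, the gene of a long noncoding RNA that is known to bind miR-133 and so to free its targets in differentiating myoblasts.

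The mature arms are printed from RefSeq (GRCm38.p6) because the 2 detected arms and the 2 undetected ones come from the same hairpins. The capitals mark the seed, bases 2 to 8, by which a miRNA mainly finds its targets.
miR-206-3p, chr1:20679055-20679076, plus strand: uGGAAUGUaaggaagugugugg
miR-206-5p, chr1:20679017-20679039, plus strand: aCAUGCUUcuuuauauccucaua
miR-133b-3p, chr1:20682834-20682855, plus strand: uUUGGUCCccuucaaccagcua
miR-133b-5p, chr1:20682797-20682818, plus strand: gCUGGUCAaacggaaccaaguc

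The hairpins are shown with the 3′ arm in capitals, since that arm is the one found in the medium. They are separated by 3686 bases.
Mir206, chr1:20679010-20679082, plus strand: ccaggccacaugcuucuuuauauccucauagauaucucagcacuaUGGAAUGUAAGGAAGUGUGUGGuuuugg
Mir133b, chr1:20682769-20682887, plus strand: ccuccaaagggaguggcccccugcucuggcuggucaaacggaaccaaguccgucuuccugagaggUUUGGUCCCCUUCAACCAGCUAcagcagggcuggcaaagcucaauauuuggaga

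The 3p arms were detected on 8 of 8 arrays and the 5p arms on 0 of 8. Both detected arms are 22 bases long. They share no seed, and only 4 of 22 positions hold the same base. An undetected miRNA is listed at 0.1 signal units, and the lowest signal of any detected mouse miRNA was 1.31 to 1.59 units per array. The 5p arms therefore have a bound only, and no ratio of the arms is given.

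Before scaling, miR-206-3p had signals of 2149, 1814 and 2467 units in G93A/G93A medium. It had 2285, 4462 and 3546 units in G93A/WT medium, and 1730 and 3037 units in WT/WT medium. G93A/WT 2 and G93A/WT 3 were highest, WT/WT 1 was lowest, and the groups overlapped.

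Before scaling, miR-133b-3p had signals of 980, 1280 and 1685 units in G93A/G93A medium. It had 1497, 2788 and 2009 units in G93A/WT medium, against 952 and 973 units in WT/WT medium. The WT/WT arrays were the 2 lowest of 8, with G93A/G93A 1 only slightly above them. The error that the files give for each signal was 8.1% to 8.4% of the signal for miR-206-3p and 8.4% to 11.9% for miR-133b-3p.

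Whole arrays also differed in brightness. The factors that put the 75th percentile of each array's 423 always-detected miRNAs on one level were 1.16, 1.31 and 0.97 in G93A/G93A, 0.93, 0.59 and 0.76 in G93A/WT, and 1.44 and 1.13 in WT/WT. Among the 423 miRNAs of an array, miR-206-3p ranked between 6 and 10 by signal and miR-133b-3p between 12 and 16. They made up 1.5% to 2.2% and 0.70% to 1.37% of the summed signal of detected miRNAs. Some markers of other cells differed between groups too: the epithelial sums were apart in all 3 groups, the fibroblast and leukocyte sums in some only. The 7 epithelial miRNAs on the array summed to 0 to 5.36 scaled units in G93A/G93A, 61.2 to 85.0 in G93A/WT and 138 to 166 in WT/WT, with miR-200a-3p and miR-141-3p detected on no array, and none of the others on all arrays. The fibroblast miRNAs, 4 of 5 detected on all arrays and miR-145a-5p on none, summed to 343 to 430 units in G93A/G93A, 415 to 553 in G93A/WT and 475 to 517 in WT/WT. The 2 leukocyte and platelet miRNAs on the array were miR-223-3p, detected on all arrays, and miR-150-5p, detected on none. Their sum, miR-223-3p alone, was 131 to 159 units in G93A/G93A, 133.3 to 145.8 in G93A/WT and 99.3 to 107 in WT/WT. The neural sum, with miR-124-3p and miR-9-5p on no array, overlapped between all groups. It was 90.3 to 117 units in G93A/G93A, 88.2 to 111 in G93A/WT and 95.5 to 103 in WT/WT. The part of these markers in the values of the members was not tested. Brightness depends on the probe as well as on the miRNA, so these ranks serve to compare arrays and not miRNAs.

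**Figure D1:**
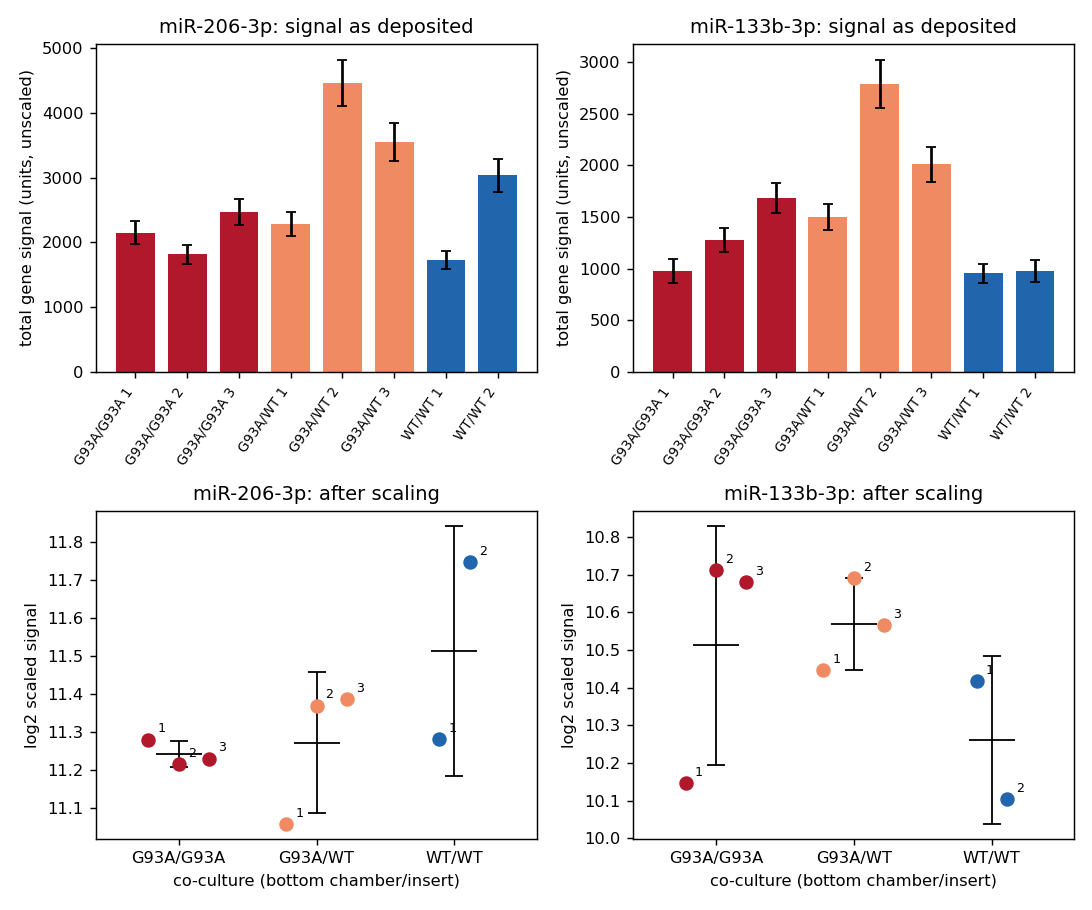
Top, the signal of each array as deposited (bars, units, unscaled) with the files' own error as the error bar; bottom, the log2 scaled signal of each array (points, numbered by replicate) with the group mean and SD. In the bottom panels WT/WT 2 holds the highest miR-206-3p value (11.75) and the lowest miR-133b-3p value (10.10).

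After scaling, the log2 signal of miR-206-3p was 11.28, 11.21 and 11.23 in G93A/G93A, 11.06, 11.37 and 11.39 in G93A/WT, and 11.28 and 11.75 in WT/WT. The G93A/G93A arrays lay within 0.07 of each other, while the WT/WT pair spanned more than any difference between group means. No G93A/G93A array lay above a WT/WT array, as for 22.7% of the tested miRNAs, but WT/WT 1 stood level with G93A/G93A 1, and the highest WT/WT value came from WT/WT 2 alone. The means were 11.24 ± 0.03 in G93A/G93A (SD over 3 arrays), 11.27 ± 0.19 in G93A/WT (SD over 3) and 11.51 ± 0.33 in WT/WT (SD over 2).

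For miR-133b-3p the log2 scaled signal was 10.15, 10.71 and 10.68 in G93A/G93A, 10.45, 10.69 and 10.57 in G93A/WT, and 10.42 and 10.10 in WT/WT. The low values were WT/WT 2 and G93A/G93A 1, and the high ones G93A/G93A 2, G93A/WT 2 and G93A/G93A 3. The means were 10.51 ± 0.32 in G93A/G93A (SD over 3 arrays), 10.57 ± 0.12 in G93A/WT (SD over 3) and 10.26 ± 0.22 in WT/WT (SD over 2). In order of their means the media ran WT/WT, G93A/WT and G93A/G93A from high to low for miR-206-3p, and G93A/WT, G93A/G93A and WT/WT for miR-133b-3p. No neighbours in either order passed the test.

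The pooled spread within groups was 0.19 (log2 SD) for miR-206-3p and 0.24 for miR-133b-3p, against a median of 0.17 over the 423 miRNAs. The files' own error came to 0.12 and 0.13 (median over arrays, log2 units), below the pooled spread. In single groups the spread could be smaller than that error, as for miR-206-3p in G93A/G93A.

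Pure mutant medium set against pure wild-type medium asks what G93A cells release when no wild-type cell shares the medium. miR-206-3p averaged 0.83 times its WT/WT level in G93A/G93A (95% interval 0.63 to 1.09), a log2 difference of −0.27 ± 0.17 (SE, adjusted p = 0.351). miR-133b-3p averaged 1.19 times its WT/WT level (0.85 to 1.66), a log2 difference of 0.25 ± 0.20 (SE, adjusted p = 0.483). Over all 538 tested miRNAs 8.55% passed in this comparison. Both intervals include 1, that of miR-206-3p reaching down to 0.63 and that of miR-133b-3p up to 1.66. Slide rows were read from position digits in the deposited array names and not from a sample label. Within slide row 2, where all G93A/G93A arrays lay beside WT/WT 2, the log2 differences were −0.51 for miR-206-3p and 0.41 for miR-133b-3p. Without WT/WT 2 they came to −0.04 and 0.09.

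Mixed medium against pure wild-type medium asks what changes in the medium when G93A cells replace the wild-type cells of the bottom chamber. miR-206-3p averaged 0.85 times its WT/WT level in G93A/WT (0.64 to 1.12), a log2 difference of −0.24 ± 0.17 (SE, adjusted p = 0.384). miR-133b-3p averaged 1.24 times its WT/WT level (0.89 to 1.72), a log2 difference of 0.31 ± 0.20 (SE, adjusted p = 0.360). Here 3.9% of the tested miRNAs passed. All 3 G93A/WT values of miR-133b-3p lay above both WT/WT values, by 0.03 at the closest, and 19.3% of the tested miRNAs had their groups apart in this direction. This comparison uses the same WT/WT arrays as the one before it. Within slide row 1, where all G93A/WT arrays lay beside WT/WT 1, the log2 differences were −0.01 for miR-206-3p and 0.15 for miR-133b-3p.

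The sign of miR-206-3p in mixed medium depended on the scaling. With the authors' own processed values, which are intensities of the same arrays, its log2 difference between G93A/WT and WT/WT was 0.05, and with quantile normalization it was 0.16. Without scaling both were higher in G93A/WT, miR-206-3p by 0.53 and miR-133b-3p by 1.08 (adjusted p = 0.217 and 0.0426). The median of all tested miRNAs then lay at 0.79, and 24.2% of them passed. Relative to that median miR-206-3p stood at −0.26 and miR-133b-3p at 0.29. miR-133b-3p kept its sign under each alternative that was run for this comparison. Several of these, such as the floor and the filters, could not change its difference.

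Pure mutant medium against mixed medium asks how the medium differs when the insert above G93A cells is wild-type. Mixed medium holds what both genotypes release. A change in the G93A cells and the insert's own release therefore cannot be told apart. miR-206-3p averaged 0.98 times its G93A/WT level in G93A/G93A (0.76 to 1.26), a log2 difference of −0.03 ± 0.15 (SE, adjusted p = 0.891). miR-133b-3p averaged 0.96 times its G93A/WT level (0.71 to 1.29), a log2 difference of −0.06 ± 0.18 (SE, adjusted p = 0.840). In this comparison 10.6% of the tested miRNAs passed. Without G93A/G93A 1 the difference of miR-133b-3p was 0.13. G93A/G93A and G93A/WT never shared a slide row, so slide row and group cannot be told apart here except through WT/WT. With the row as a block the log2 differences were −0.50 for miR-206-3p and 0.26 for miR-133b-3p (adjusted p = 0.456 and 0.790).

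A further contrast asks whether mixed medium lay midway between the pure media. Against the midpoint of the pure media, G93A/WT differed by −0.11 (log2, 95% interval −0.43 to 0.22, adjusted p = 0.607) for miR-206-3p. For miR-133b-3p it differed by 0.18 (−0.20 to 0.57, adjusted p = 0.477). Over all tested miRNAs 7.43% passed in this contrast. These signs depended on the settings. miR-206-3p lay above the midpoint with quantile normalization (0.20), with the authors' values (0.10), without scaling (0.58), with the slide row as a block (0.24) and, by 0.0107, without WT/WT 2. Without G93A/WT 1 it lay at 0.0011. miR-133b-3p passed without scaling (0.87, adjusted p = 0.0259), where 58.6% of all tested miRNAs passed and their median lay at 0.73. With the row block miR-133b-3p lay at −0.0545.

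**Figure D2:**
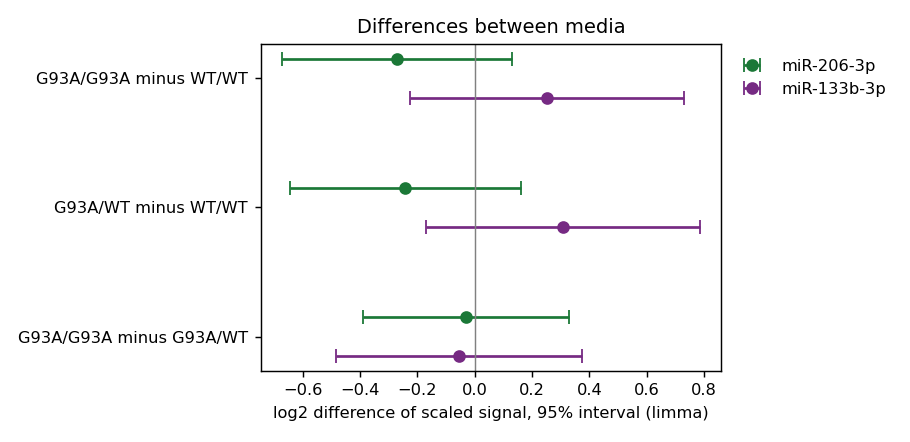
Log2 differences of the scaled signal (points) with 95% intervals from limma, for miR-206-3p and miR-133b-3p in the 3 comparisons named on the vertical axis. All 6 intervals cross 0, and the members lie on opposite sides of it against WT/WT.

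Because they are measured on the same array, the ratio of the members needs no scaling. The log2 ratio of miR-133b-3p to miR-206-3p was −1.13, −0.50 and −0.55 in G93A/G93A, −0.61, −0.68 and −0.82 in G93A/WT, and −0.86 and −1.64 in WT/WT. Its means were −0.73 ± 0.35 in G93A/G93A (SD over 3 arrays), −0.70 ± 0.11 in G93A/WT (SD over 3) and −1.25 ± 0.55 in WT/WT (SD over 2). The WT/WT arrays held the lowest and the third lowest value, with G93A/G93A 1 between them. A ratio shows unequal change of its members and not which of them moved.

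The mean ratio was higher by 0.52 in G93A/G93A than in WT/WT (exact permutation test, 2-sided, p = 0.3, adjusted p = 0.643 over 9 tests of 3 ratios). It was higher by 0.55 in G93A/WT than in WT/WT (exact permutation test, p = 0.1, adjusted p = 0.45), with the groups apart. With 3 arrays against 2, or against 3, such a test cannot give a p below 0.1. Between G93A/G93A and G93A/WT the ratio differed by −0.03 (exact permutation test, p = 1). Without WT/WT 2 the first of these differences was 0.13 and the second 0.16, and without WT/WT 1 they were 0.91 and 0.94. Their size thus rested on which WT/WT array was kept, and 2 arrays cannot show which is atypical.

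A further question was whether the neighbours varied together between samples. Across the 8 arrays the scaled signals of miR-206-3p and miR-133b-3p had r = −0.48 (Pearson, exact permutation p = 0.243, adjusted p = 0.730 over 6 pairs) and rho = −0.38 (Spearman, exact permutation p = 0.360, adjusted p = 0.924). Without WT/WT 2 and G93A/WT 1, the arrays farthest from the median of miR-206-3p, r was −0.02. With the authors' values r was 0.02, and with each group's mean removed it was −0.25. Without scaling r was 0.74 (adjusted p = 0.0391), on arrays that differed in overall brightness, and without the 2 arrays farthest from the median it was 0.11. Each slide row held 4 arrays, too few for a correlation of its own.

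miR-133b-3p varied with its family member miR-133a-3p instead, whose mature sequence is known to differ from it at the 3′ end only and which comes from other loci. Over the 8 arrays r was 0.85 (Pearson, exact permutation p = 0.00637, adjusted p = 0.0382) and rho was 0.81 (Spearman, exact permutation p = 0.0218, adjusted p = 0.131). It was 0.72 without WT/WT 2 and G93A/G93A 1, 0.89 with the authors' values and 0.86 with each group's mean removed. How far the probes of such like sequences read each other's miRNA was not tested. The log2 scaled signal of miR-133a-3p was 8.28, 9.36 and 9.73 in G93A/G93A, 9.35, 9.66 and 9.56 in G93A/WT, and 8.96 and 8.93 in WT/WT. It spanned 1.45 over the 8 arrays, against 0.61 for miR-133b-3p. Their within-array ratio, miR-133b-3p over miR-133a-3p, was therefore not constant: it ran from 0.95 to 1.86 (log2) in G93A/G93A, from 1.01 to 1.10 in G93A/WT and from 1.17 to 1.46 in WT/WT. The G93A/WT values lay below both WT/WT values (difference of −0.27, exact permutation p = 0.1, adjusted p = 0.45).

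**Figure D3:**
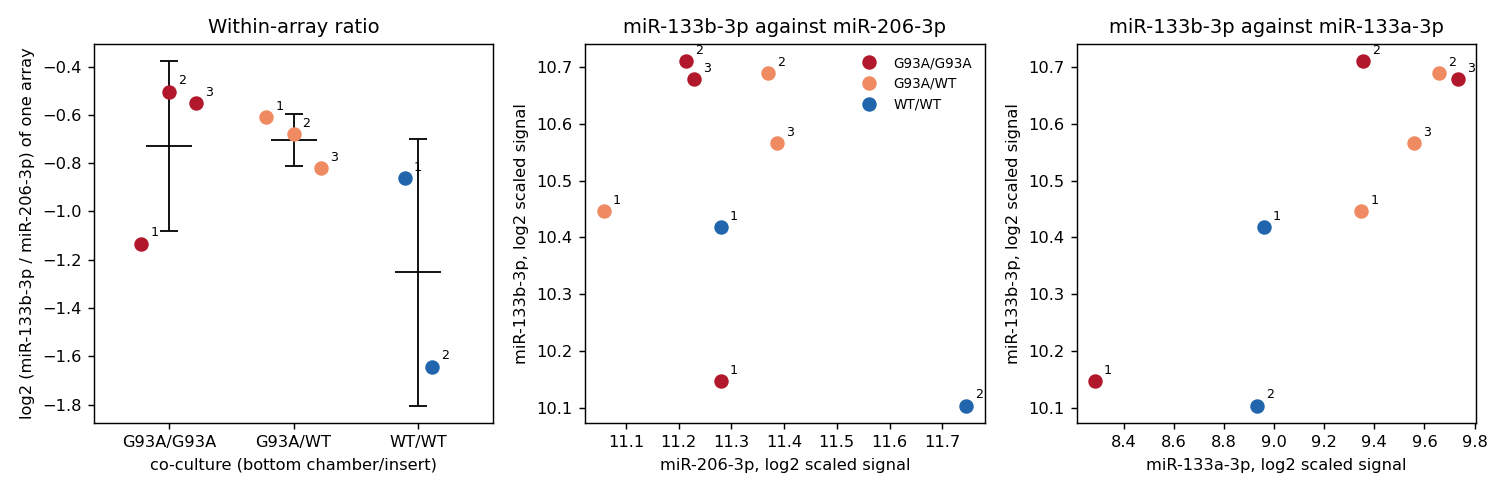
Left, the log2 ratio of miR-133b-3p to miR-206-3p on each array (points, numbered by replicate) with group mean and SD; middle and right, the log2 scaled signal of miR-133b-3p against that of miR-206-3p and of miR-133a-3p, 1 point per array. miR-133b-3p rises with miR-133a-3p (r = 0.85) and not with miR-206-3p (r = −0.48).

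miR-206 shares its seed with miR-1a, its relative from other muscle loci, and r between miR-206-3p and miR-1a-3p was −0.04 over the 8 arrays (Pearson, exact permutation p = 0.918, adjusted p = 0.918). miR-1a-3p was steadier, between 7.24 and 7.70 on the log2 scale. The within-array log2 ratio of miR-206-3p to miR-1a-3p averaged 3.75 ± 0.21 in G93A/G93A (SD over 3 arrays), 3.89 ± 0.21 in G93A/WT (SD over 3) and 4.10 ± 0.33 in WT/WT (SD over 2). Its differences were −0.35 between G93A/G93A and WT/WT and −0.21 between G93A/WT and WT/WT (exact permutation tests, p = 0.3 and 0.5, adjusted p = 0.643 for each).

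Of the 1608 array miRNAs with a RefSeq sequence, 2 more carry the seed of miR-206-3p, and 0 others carry that of miR-133b-3p. miR-1a-3p and miR-133a-3p had no sequence in the table and so were not in this search. The matches are printed to show the shared seed, again in capitals.
miR-6349, chr1:39186908-39186929, minus strand: uGGAAUGUgggaggggcaugcg
miR-6382, chrX:106309909-106309932, plus strand: uGGAAUGUaaagagagcacacaag

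miR-6382 was detected on 0 of 8 arrays. miR-6349 was detected on all 8, dimly, with log2 scaled signals of 4.23, 4.12 and 3.96 in G93A/G93A, 3.93, 3.92 and 3.86 in G93A/WT, and 4.09 and 4.13 in WT/WT. Its values in G93A/WT lay below both other groups, by a log2 difference of −0.21 ± 0.11 against WT/WT (SE, adjusted p = 0.277), which did not pass, and 26% of the tested miRNAs had their groups apart in this direction. All G93A/G93A values lay above those of G93A/WT, as for 15.6% of the tested miRNAs. Its pattern was no close match for that of miR-206-3p (r = 0.21 over 8 arrays, place 139 of 422).

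Likeness of pattern was measured as Pearson's r of the log2 scaled signal over the 8 arrays, against the other 422 miRNAs detected on all of them. These values are a description: the arrays share groups, slide rows and their scaling. The 5 most like miR-206-3p were let-7c-5p (r = 0.92), miR-487b-3p (0.90), miR-532-5p (0.87), let-7b-5p (0.86) and miR-126a-3p (0.83). let-7c-5p, of the let-7 family known for rising as cells differentiate, read 9.50, 9.33 and 9.27 in G93A/G93A, 9.06, 9.37 and 9.40 in G93A/WT, and 9.46 and 9.80 in WT/WT. As with miR-206-3p, WT/WT 2 was highest and G93A/WT 1 lowest. miR-1a-3p, miR-133a-3p and miR-133b-3p came at places 225, 282 and 357.

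The 5 most like miR-133b-3p were miR-3106-5p (r = 0.90), miR-202-3p (0.89), miR-451a (0.89), miR-675-3p (0.89) and miR-674-3p (0.88), with miR-133a-3p at place 10. miR-675 is processed from the imprinted H19 RNA of muscle and is known to promote differentiation, whereas miR-451a is a miRNA of red blood cells. miR-451a read 9.64, 10.15 and 10.28 in G93A/G93A, 10.13, 10.22 and 10.33 in G93A/WT, and 9.84 and 9.72 in WT/WT. G93A/G93A 1 and the WT/WT arrays were low for it, as for miR-133b-3p. Of the 6 erythroid and serum miRNAs on the array, 4 were detected on all arrays and miR-144-3p on none. Their summed scaled signal was 2053 to 2700 units in G93A/G93A, 2390 to 2663 in G93A/WT and 2271 to 2344 in WT/WT. What part such RNA has in the miR-133b-3p values was not tested. The endothelial miRNAs, of which miR-126a-3p was detected on all arrays and miR-126a-5p on none, summed to 93.1 to 101 units in G93A/G93A, 87.4 to 113 in G93A/WT and 109 to 119 in WT/WT. Their part in the miR-206-3p values was not tested either.

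The wider set of muscle-enriched miRNAs held 18 members on the array, of which 11 were detected on no array. The cardiac and slow-fibre miRNAs miR-208a-3p, miR-208b-3p, miR-208b-5p and miR-499-3p were among the undetected, and miR-499-5p was detected on G93A/WT 2 alone. The 5 detected everywhere were miR-206-3p, miR-133b-3p, miR-133a-3p, miR-1a-3p and miR-208a-5p, the last at no more than 3.64 on the log2 scale. Of 6 tested members, 0 passed between G93A/G93A and WT/WT, where 8.55% of all tested miRNAs passed. The 5 detected everywhere had a median of 0.18 there, beside −0.07 over the 423 miRNAs detected on all arrays. The largest of their differences was that of the dim miR-208a-5p (0.45 ± 0.27, SE). In both other comparisons 1 passed, miR-133a-5p, beside 3.9% of all tested miRNAs between G93A/WT and WT/WT and 10.6% between G93A/G93A and G93A/WT. It was detected on the 3 G93A/WT arrays and nowhere else, so it entered the test only through the group where it was high. Its call, higher in G93A/WT, depends on the floor. As many as 19.1% of the tested miRNAs lay apart and lower in G93A/G93A than in G93A/WT. Of the 5 detected everywhere 0 passed in these comparisons. Their medians were 0.13 between G93A/WT and WT/WT and −0.03 between G93A/G93A and G93A/WT, beside −0.03 and −0.04 over the 423. Between G93A/G93A and WT/WT miR-133a-3p differed by 0.18 ± 0.39 and miR-1a-3p by 0.08 ± 0.15 (SE, adjusted p = 0.829 and 0.817).

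Of the miRNAs known to act in myoblast differentiation 18 were tested, 14 of them detected on all arrays. In G93A/G93A relative to WT/WT 3 fell (miR-125b-5p, miR-181a-5p and miR-378a-3p) and 0 rose, where 4.83% of all tested miRNAs fell. Of these miR-181a-5p was not detected on all arrays, so some of its values lie at the floor. Of the 14 detected on all arrays 13 lay below zero, with a median of −0.34 beside −0.07 over the 423 miRNAs detected on all arrays. In the same comparison the fibroblast markers lay below zero in 4 of 4, with a median of −0.35 and 1 that fell (miR-199a-5p). miR-214-3p is counted in both the fibroblast and the myoblast differentiation list. miR-223-3p of leukocytes rose by 0.52. All 5 tested epithelial miRNAs fell, 4 of which were detected on no G93A/G93A array. Those 4 entered the test only through the groups where they were high, and their calls depend on the floor. The part of those cells in the counts was not tested. Between G93A/WT and WT/WT 1 of 18 rose (miR-682), where 3.16% of all tested miRNAs rose, and 0 fell. miR-682 was not among the 14 detected on all arrays, so some of its values lie at the floor. The 14 had a median of −0.02 beside −0.03 over the 423 miRNAs detected on all arrays. Between G93A/G93A and G93A/WT 3 of 18 fell (miR-181a-5p, miR-26a-5p and miR-682), where 5.2% of all tested miRNAs fell, and 0 rose. Of these only miR-26a-5p was detected on all arrays. In this comparison 13 of the 14 lay below zero, with a median of −0.30 beside −0.04 over the 423 miRNAs detected on all arrays.

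**Figure D4:**
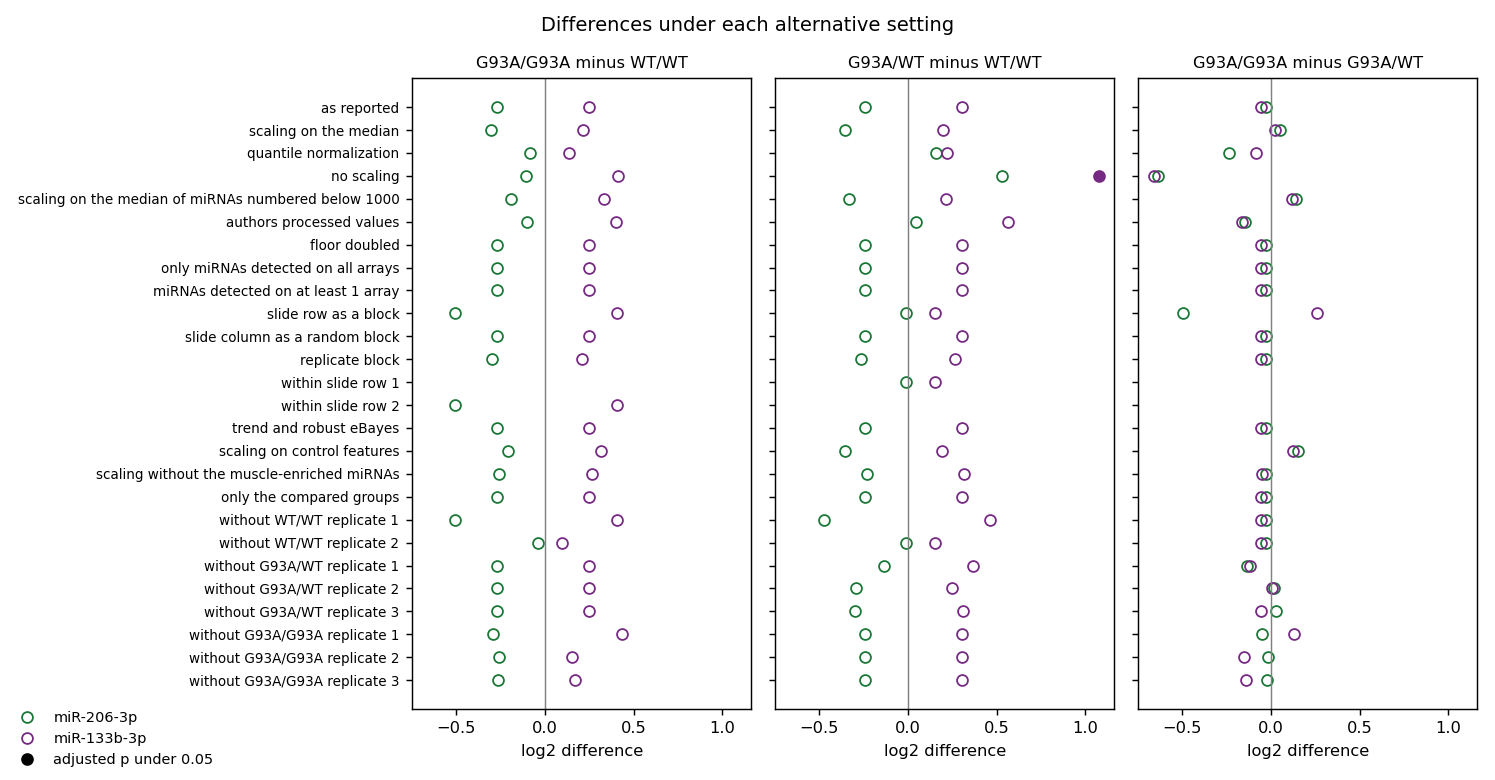
Log2 differences of miR-206-3p and miR-133b-3p (horizontal axis) in 3 comparisons under each setting named on the vertical axis; a filled point has an adjusted p under 0.05. The 1 filled point is miR-133b-3p between G93A/WT and WT/WT without scaling (1.08), where 24.2% of all tested miRNAs passed. Against WT/WT, leaving out WT/WT replicate 2 brings G93A/G93A and G93A/WT to −0.04 and −0.01 for miR-206-3p and to 0.09 and 0.15 for miR-133b-3p. Leaving out WT/WT replicate 1 moves them away from 0, to −0.51 and −0.47 and to 0.41 and 0.46.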

How the data were processed

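The values are gene-level intensities of 8 Agilent 1-colour arrays, per the file headers: the authors deposited, for each miRNA and array, a total gene signal, its error and a detection flag. The scanner software was not given in the sources used here. The series' value table also holds intensities deposited by the authors, for 492 mouse miRNAs, with array medians of 25.4 to 28.1; its scaling is not stated, and it served as an alternative. The RNA of 600 µl of medium was pooled and 150 ng labelled, per the labels' protocols.

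Each array was scaled to the 75th percentile of the 423 mouse miRNAs detected on all 8 arrays, floored at 1.52 units (0.60 on the log2 scale) and put on the log2 scale. limma 3.58.1 in R 4.3.3 was fitted to all 3 groups over 538 miRNAs detected on at least 2 arrays, with Benjamini-Hochberg adjustment, a threshold of 0.05 and 95% intervals. Ratios and correlations had exact permutation tests over arrays. The number of arrays limits the precision. Data were simulated for G93A/G93A against WT/WT over 538 miRNAs, with 85 changed by size 1 (log2), 115 by size 2 and 338 unchanged. Of these 83.5%, 96.5% and 2.66% were called, in this order. The noise was drawn independently for each value from the spread that limma fitted, without a floor. No effect shared by an array or a slide row was simulated, so the rates do not cover such effects. More miRNAs were changed than the 8.55% called in the data, and with more changes each is easier to call under this adjustment. Smaller changes, such as the differences of the members, were not simulated.

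The text names the members, the other arms of their hairpins, muscle-enriched miRNAs, miRNAs sharing a seed with a member and, per member, the 5 with the highest r. The called members of the myoblast differentiation and marker lists are named in addition and were chosen after their values were seen. The members and lists were chosen with earlier results of these data known. Alternatives covered the scaling, floor, filter, slide row, replicate number and each array left out. With each group's mean removed, same-numbered arrays of different groups had correlations of −0.31 to 0.31 over 7 pairs, of which 2 were over 0.1. The numbers were therefore not taken to pair the samples. With only 2 WT/WT arrays, their deviations from the group mean are opposite, so their correlations mirror each other.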

Additional observations from a re-analysis of the deposited data

How the results depend on the processing

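Between G93A/G93A and WT/WT both members kept their sign and stayed short of the threshold under all 24 alternatives. Several of these could not change the difference itself, such as the floor, the filters and leaving out a G93A/WT array. The row block, row 2 alone and leaving out WT/WT 1 gave one and the same difference in this comparison. Leaving out 1 array at a time gave −0.51 to −0.04 for miR-206-3p and 0.09 to 0.43 for miR-133b-3p there, −0.47 to −0.01 and 0.15 to 0.46 between G93A/WT and WT/WT, −0.14 to 0.0279 and −0.16 to 0.13 between G93A/G93A and G93A/WT, and −0.22 to 0.0107 and 0.09 to 0.26 against the midpoint. Where 1 WT/WT array was left, it was assumed to vary like the other groups. The ratio of miR-133b-3p to miR-206-3p then ranged over 0.13 to 0.91, 0.16 to 0.94 and −0.14 to 0.18 in the 3 comparisons. miR-206-3p was higher in G93A/WT than in WT/WT with quantile normalization (0.16), no scaling (0.53) and the authors' values (0.0459), and above the midpoint with the same settings (0.20, 0.58 and 0.10) and with the slide row as a block (0.24). Between G93A/G93A and G93A/WT, scaling on the median gave 0.0477 for miR-206-3p and 0.0220 for miR-133b-3p, the median of low-numbered, earlier named miRNAs gave 0.14 and 0.12, and control features gave 0.15 and 0.12. The row block turned miR-133b-3p to 0.26 there and to −0.0545 against the midpoint. No scaling brought miR-133b-3p past the threshold between G93A/WT and WT/WT (1.08) and against the midpoint (0.87). Of all tested miRNAs 24.2% and 58.6% passed there. The cause was not tested. The muscle-enriched count of 1 between G93A/WT and WT/WT was 0 with quantile normalization, the authors' values, a doubled floor, only miRNAs detected on all arrays, within row 1 and with control features, and 3 with no scaling. That between G93A/G93A and G93A/WT was 0 with the first 4 of these and with the row block. Without scaling r was 0.74 for miR-206-3p with miR-133b-3p, 0.85 with miR-1a-3p and 0.74 with miR-133a-3p, 0.94 for miR-133b-3p with miR-1a-3p and 0.91 for miR-1a-3p with miR-133a-3p. The authors' values gave 0.0191 for miR-206-3p with miR-133b-3p and 0.22 with miR-133a-3p, and removing group means gave 0.0403 with miR-1a-3p and 0.0062 with miR-133a-3p.

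With the replicate number as a block, the differences were −0.30, −0.27 and −0.03 for miR-206-3p and 0.21, 0.27 and −0.06 for miR-133b-3p in the 3 comparisons, and −0.12 and 0.16 against the midpoint. The block changed no call of a member, and over all miRNAs it left 10, 8 and 37 calls beside 46, 21 and 57. With group means removed, only 1 of 8 arrays correlated best with its own number. Across all alternatives those counts ran between 7 (row block) and 57, between 0 (only miRNAs detected on all arrays) and 130 (no scaling), and between 0 (row block) and 149 (no scaling). Scaling on the 75th percentile of all mouse miRNAs was not run, since it fell on the undetected value of 0.1 on 3 of 8 arrays. Scaling on control features and scaling without the muscle-enriched miRNAs were chosen after seeing the data.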
